A study of Mus musculus with 19 samples.

Results

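The genes described here encode receptors, bridging ligands and an adaptor with which astrocytes recognise and engulf synapses, debris and dying cells. They were chosen by name, as the rows of the deposited table whose symbol is Megf10, Mertk, Axl, Tyro3, Gas6, Pros1, Lrp1, Mfge8, Gulp1 or Itgb5. All 10 were found among the 21749 genes of the table, and all 10 passed the filter on low values that left 20644 genes for testing. Engulfment starts when phosphatidylserine appears on the outer face of a membrane. Gas6, Pros1 and Mfge8 are secreted proteins that bind phosphatidylserine and link it to receptors: Gas6 and Pros1 to the receptor tyrosine kinases Tyro3, Axl and Mertk, and Mfge8 to integrins that contain the beta 5 subunit encoded by Itgb5. Megf10, Lrp1 and the cytoplasmic adaptor Gulp1 belong to a further route, known from the engulfment genes of Caenorhabditis elegans, and in the mouse Megf10 and Mertk are known for the uptake of synapses by astrocytes.

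Ribosome-bound messenger RNA was collected from mouse cortex by translating ribosome affinity purification, in which tagged ribosomes are pulled down with beads before RNA extraction. All mice were of the JD130Htz line on a B6;FVB background, which carries the transgene Tg(Aldh1l1-EGFP/Rpl10a), in which an EGFP-tagged ribosomal protein L10a is expressed under the astrocyte gene Aldh1l1. There were 4 libraries from males, 8 from females in metestrus, 3 from females in proestrus (labelled Pro-Day) and 4 from females in estrus, and females were collected in the morning. Ages are not given in the labels, and neither is whether a library came from 1 animal or several, and every p-value therefore refers to spread among libraries, which may be technical. The labels name batches 2, 3 and 4. Batch 4 held the 4 male libraries and 5 metestrus libraries, batch 2 held 2 metestrus, 2 proestrus and 3 estrus libraries, and batch 3 held 1 library of each stage. Replicate numbers are names only.

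The values are the deposited log2 expression values, and sequencing depth is unknown. Pairs of libraries had correlations across genes of 0.886 to 0.980. The Y-linked genes Ddx3y, Eif2s3y, Kdm5d and Uty lay at 5.94 or above in every male library and at 4.03 or below in every female library. Astrocyte transcripts were abundant: the mean log2 value of 12 astrocyte markers lay between 14.27 and 14.46 in males, 13.90 and 14.48 in metestrus, 14.01 and 14.04 in proestrus and 13.61 and 14.26 in estrus. Transcripts of other cells were present too. The 12 neuron markers averaged between 12.45 and 12.98 over the 19 libraries and the 14 tested microglia markers between 7.18 and 7.99, with the microglial receptor Cx3cr1 between 6.87 and 8.28. No unpurified tissue was analysed here, so these values do not say how far astrocyte transcripts were enriched. Axl, Mertk, Gas6, Pros1 and Lrp1 are also used by microglia or vascular cells, and what other cells contributed to their levels was not tested. In tissue libraries of this kind, fewer cells of a type and less RNA per cell cannot be told apart.

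None of the 10 phagocytosis genes passed the threshold in any comparison. Differences were tested with limma on all 19 libraries, with group and batch in the model, and a call is a Benjamini-Hochberg adjusted p under 0.05 over the whole table. In proestrus against metestrus 0 of 10 passed, beside 0.988% of all tested genes. In estrus against metestrus 0 of 10 passed, beside 0.0872% of all genes. In estrus against proestrus 0 of 10 passed, beside 0.94%, and in males against metestrus 0 of 10 passed, beside 0.0242%. A test for any difference among the 4 groups called 0 of 10, beside 0.635%. With calls this rare among all genes, a count of 0 in a set of 10 does not set the phagocytosis genes apart. At an unadjusted p under 0.05 limma listed 1 of 10 in proestrus against metestrus (Gulp1, beside 13.1% of all genes). It listed 2 of 10 in estrus against metestrus (Lrp1 and Itgb5, beside 11.3%), 1 of 10 in estrus against proestrus (Lrp1, beside 14.5%) and 0 of 10 in males against metestrus (beside 5.33%). For any difference among the groups it listed Lrp1 and Itgb5 (beside 13.9%).

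**Figure D1:**
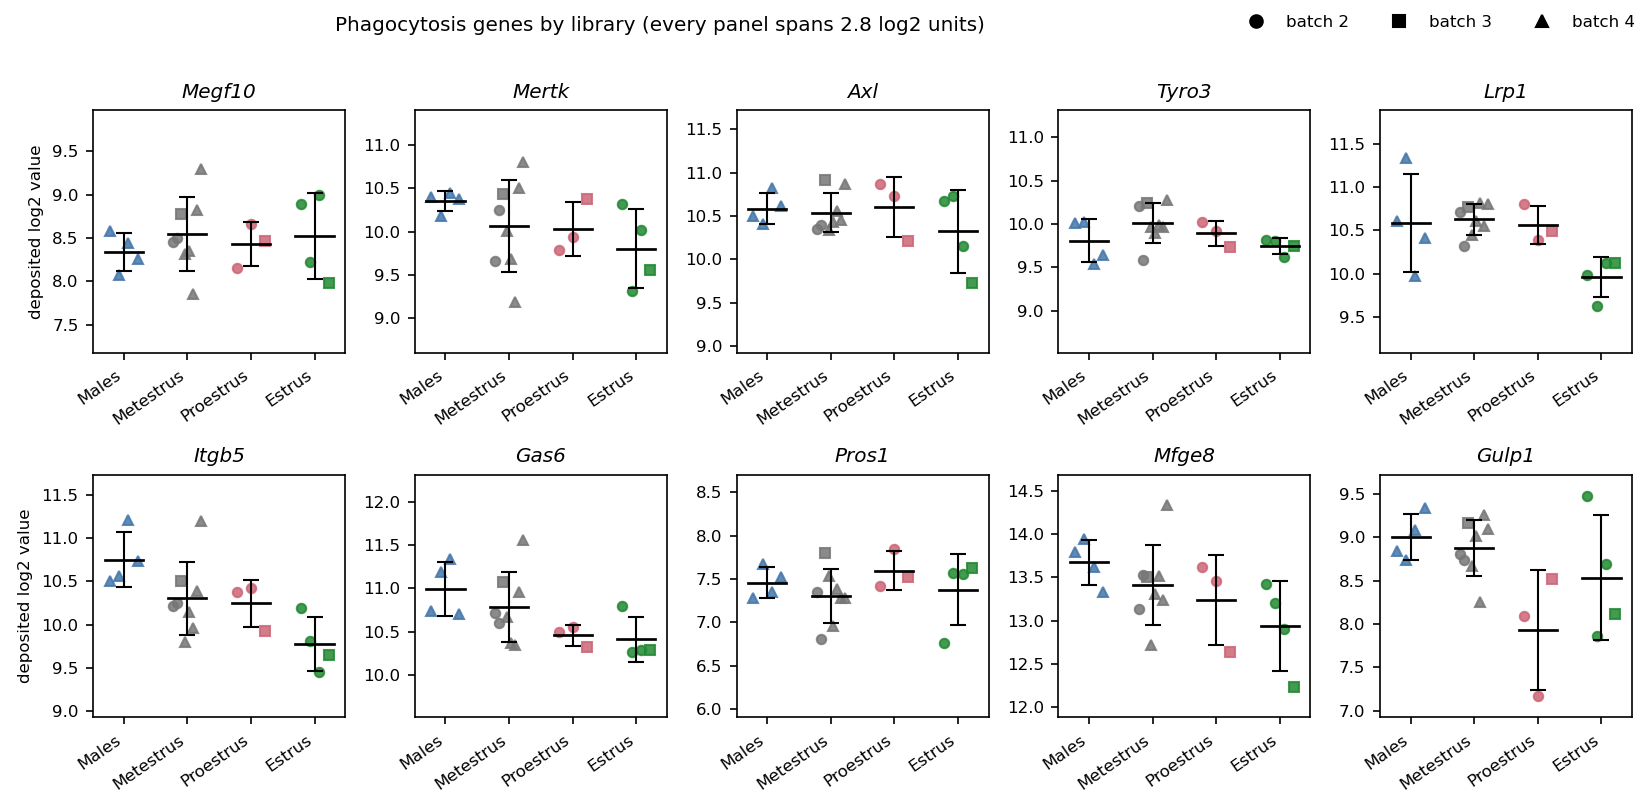
Deposited log2 values of the 10 phagocytosis genes in each library, by group, with the group mean and SD as black lines and the batch as marker shape. Every panel spans the same number of log2 units. Lrp1 lay at 10.12 or below in all 4 estrus libraries and at 10.32 or above in all metestrus and proestrus libraries, and for most other genes the groups overlapped.

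Mertk, Axl and Tyro3 are receptor tyrosine kinases that share Gas6 and, for Mertk and Tyro3, Pros1 as ligands. Mertk (ENSMUSG00000014361.6) read 10.18, 10.38, 10.41 and 10.45 in males. In metestrus it ranged from 9.20 to 10.81 (median 10.13), in proestrus it read 9.78, 9.94 and 10.38, and in estrus 9.31, 9.56, 10.02 and 10.33. The male libraries lay close together and inside the metestrus range, and the 3 female stages overlapped. Mertk had a log2 fold change of 0.32 ± 0.27 (SE) in males against metestrus (95% interval -0.24 to 0.87), and of -0.30 ± 0.30 in estrus against metestrus (-0.93 to 0.34). Both intervals include 0, and leaving out 1 library gave 0.11 (without metestrus replicate 6) to 0.51 (without metestrus replicate 8) in males and -0.51 (without metestrus replicate 1) to -0.06 (without estrus replicate 4) in estrus.

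Axl (ENSMUSG00000002602.17) read 10.41, 10.50, 10.62 and 10.82 in males. It ranged from 10.34 to 10.92 (median 10.45) in metestrus, and read 10.22, 10.73 and 10.87 in proestrus and 9.73, 10.15, 10.68 and 10.73 in estrus. The lowest pair of Axl values were both estrus libraries, from batches 2 and 3, while the other pair lay within the metestrus range. Axl had its largest log2 fold change in estrus against proestrus, at -0.31 ± 0.22 (SE; -0.76 to 0.15) and -0.09 without estrus replicate 4, a difference smaller than the spread between libraries.

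Tyro3 (ENSMUSG00000027298.18), the receptor of the 3 that is best known from neurons, varied least of the 10 genes. Its SD over the 19 libraries was 0.22, and 6.20% of tested genes had a lower SD. Tyro3 read 9.54, 9.65, 10.01 and 10.03 in males, ranged from 9.58 to 10.28 (median 9.98) in metestrus, and read 9.74, 9.92 and 10.02 in proestrus and 9.62, 9.75, 9.81 and 9.82 in estrus. All 4 estrus libraries stood below the metestrus median, though within the metestrus range. The log2 fold change was -0.26 ± 0.19 (SE; -0.65 to 0.13) in estrus against metestrus and -0.21 ± 0.16 (-0.55 to 0.13) in males against metestrus. Leaving out 1 library gave -0.50 (without metestrus replicate 2) to -0.12 (without metestrus replicate 3) in estrus and -0.12 without males replicate 3.

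Gas6 (ENSMUSG00000031451.7) is the ligand of all 3 receptors, and its activity needs vitamin K dependent carboxylation. It read 10.71, 10.74, 11.19 and 11.34 in males, ranged from 10.34 to 11.56 (median 10.69) in metestrus, and read 10.33, 10.49 and 10.56 in proestrus and 10.26, 10.29, 10.29 and 10.80 in estrus. The 3 proestrus libraries and 3 of the estrus libraries lay below the metestrus median. Gas6 had a log2 fold change of -0.34 ± 0.26 (SE; -0.88 to 0.21) in proestrus against metestrus and of -0.38 ± 0.25 (-0.90 to 0.13) in estrus against metestrus. In males against metestrus it was 0.21 ± 0.22 (-0.24 to 0.66), and it turned below 0 with the astrocyte marker mean as a covariate. Without metestrus replicate 3 the values were -0.14 in proestrus and -0.20 in estrus, and leaving out 1 library gave 0.10 to 0.41 in males. The intervals leave room for Gas6 in estrus to be 1.86-fold lower than in metestrus, and they include no difference.

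Pros1 encodes protein S, a plasma anticoagulant that is also a ligand of Tyro3 and Mertk. Pros1 (ENSMUSG00000022912.9) read 7.28, 7.35, 7.52 and 7.67 in males, ranged from 6.81 to 7.80 (median 7.32) in metestrus, and read 7.42, 7.52 and 7.85 in proestrus and 6.76, 7.56, 7.57 and 7.63 in estrus. The 4 groups overlapped, and the lowest value belonged to an estrus library whose 3 companions lay close together. Its log2 fold change was 0.27 ± 0.30 (SE; -0.35 to 0.89) in proestrus against metestrus, and leaving out 1 library gave 0.05 (without metestrus replicate 2) to 0.48 (without proestrus replicate 3). Gas6 and Pros1 did not vary together: their correlation over the 19 libraries was -0.04.

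The enzymes that carboxylate and process Gas6 and Pros1 gave no call either. Of the 6 tested genes of this list (Ggcx, Vkorc1, Vkorc1l1, Aifm2, Calu and Furin), 0 passed in each comparison, and 1 of 6, Furin in estrus against metestrus, had an unadjusted p under 0.05 (beside 11.3% of all genes). Furin, a protease of the secretory pathway, averaged 7.83 ± 0.56 in estrus (SD, n = 4) and 8.45 ± 0.18 in metestrus (SD, n = 8), and the fitted difference was -0.62 ± 0.27 (SE) on the log2 scale (limma adjusted p = 0.403). All 6 genes had a fold change below 0 in proestrus against metestrus (median -0.28), where 58.1% of all tested genes did and the median was -0.09. Calu, which encodes calumenin, an inhibitor of the carboxylase, averaged 9.58 ± 0.34 in proestrus (SD, n = 3) and 10.11 ± 0.50 in metestrus (SD, n = 8).

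Lrp1 (ENSMUSG00000040249.16) is a very large endocytic receptor, which takes up apolipoprotein E, proteases with their inhibitors, and debris. Lrp1 read 9.98, 10.41, 10.60 and 11.34 in males, ranged from 10.32 to 10.81 (median 10.66) in metestrus, and read 10.39, 10.49 and 10.81 in proestrus and 9.63, 9.99, 10.12 and 10.12 in estrus. The estrus libraries, from batches 2 and 3, did not overlap with the metestrus or the proestrus libraries. Lrp1 was the 1 gene of 10 whose groups did not overlap in estrus against metestrus, beside 3.33% of all tested genes, and the 1 of 10 in estrus against proestrus, beside 9.06%. In proestrus against metestrus and in males against metestrus 0 of 10 were free of overlap, beside 8.73% and 1.44% of all tested genes. Male libraries spanned more than any other group for this gene, on both sides of the metestrus range.

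Lrp1 averaged 9.96 ± 0.23 (SD) in the 4 estrus libraries, 10.56 ± 0.22 in the 3 proestrus libraries and 10.63 ± 0.18 in the 8 metestrus libraries. Its log2 fold change was -0.62 ± 0.23 (SE; -1.11 to -0.14) in estrus against metestrus, with a limma adjusted p of 0.317, which is 1.54-fold lower in estrus. In estrus against proestrus the log2 fold change was -0.59 ± 0.23 (-1.08 to -0.10), with a limma adjusted p of 0.233. Without batch in the model the first of these was -0.66 with a limma adjusted p of 0.0382, and over all alternatives its adjusted p ranged from 0.0382 to 0.741. The mean of the 10 endothelial markers was lower in estrus too: it lay between 3.86 and 5.0 in estrus, 4.95 and 5.60 in proestrus and 4.72 and 5.90 in metestrus. Of these markers 8 of 10 had a fold change below 0 in estrus against metestrus, beside 56.5% of all tested genes, with 0 called. The mean includes genes near or below the filter level of 3.32: Tek averaged 0.49 in estrus and 4.40 in metestrus, and Tie1 1.82 and 3.76. The endothelial junction gene Cldn5 averaged 6.63 ± 0.77 in estrus (SD, n = 4) and 7.39 ± 0.22 in metestrus (SD, n = 8). Esam and Slco1a4 averaged higher in estrus, at 6.23 and 5.96, than in metestrus, at 5.46 and 5.67. Lrp1 correlated with the endothelial mean over the 19 libraries (r = 0.68, Spearman 0.59, r = 0.50 without the 2 libraries farthest from the median of that mean) and much less with the astrocyte mean (r = 0.18). In males against metestrus 0 of 10 endothelial markers were below 0 (median 0.57), with means of 6.26 in males and 5.37 in metestrus, while Lrp1 had a log2 fold change of -0.06. What part endothelial transcripts had in the estrus difference was not tested.

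Of the 10 tested ligands and partners of Lrp1 (among them Apoe, App, A2m, Clu and the chaperone gene Lrpap1), 0 passed in each comparison. In males against metestrus 2 of 10 had an unadjusted p under 0.05, beside 5.33% of all genes. Plat, which encodes tissue plasminogen activator, a protease cleared by Lrp1, averaged 8.93 ± 0.11 in males (SD, n = 4) and 8.17 ± 0.13 in metestrus (SD, n = 8). The spread of Plat within both groups was small against the log2 fold change of 0.77 ± 0.19 (SE), yet its limma adjusted p was 0.498 over all genes. Sorl1, a sorting receptor, averaged 10.54 ± 0.12 (SD) in the 4 estrus libraries and 10.96 ± 0.08 in the 3 proestrus libraries, and the fitted difference was -0.41 ± 0.15 (SE) on the log2 scale (limma adjusted p = 0.187).

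Mfge8 and Itgb5 form a ligand and receptor pair: Mfge8 binds phosphatidylserine and, through an Arg-Gly-Asp motif, integrins such as the alpha v beta 5 dimer. The mean log2 value of Mfge8 (ENSMUSG00000030605.16), not corrected for length, exceeded that of 98.5% of tested genes. It read 13.33, 13.61, 13.79 and 13.94 in males, ranged from 12.72 to 14.34 (median 13.40) in metestrus, and read 12.64, 13.46 and 13.62 in proestrus and 12.23, 12.90, 13.21 and 13.42 in estrus. The lowest values of proestrus and of estrus were both the library from batch 3. The log2 fold change of Mfge8 was -0.50 ± 0.28 (SE; -1.07 to 0.08) in estrus against metestrus and 0.25 ± 0.24 (-0.25 to 0.75) in males against metestrus. The male value turned below 0 with the astrocyte marker mean as a covariate. Leaving out 1 library gave -0.75 to -0.16 in estrus, the ends being without metestrus replicate 1 and without metestrus replicate 3, and 0.07 to 0.48 in males, the ends being without metestrus replicate 4 and without metestrus replicate 8.

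Itgb5 (ENSMUSG00000022817.16) read 10.51, 10.56, 10.74 and 11.20 in males, ranged from 9.80 to 11.19 (median 10.23) in metestrus, and read 9.93, 10.38 and 10.42 in proestrus and 9.46, 9.66, 9.81 and 10.19 in estrus. Every male library was above the metestrus median and every estrus library below it, with overlap in both cases. The log2 fold change was -0.55 ± 0.26 (SE; -1.10 to -0.002) in estrus against metestrus, with a limma adjusted p of 0.439, and 0.46 ± 0.23 (-0.03 to 0.94) in males against metestrus, with a limma adjusted p of 0.952. The estrus interval was -1.14 to 0.04, including 0, once directions of variation removed before deposit were counted in the model. This was done by adding the 2 that are independent of batch. Itgav, which encodes the alpha v partner of this integrin, averaged 8.88 ± 0.11 in proestrus (SD, n = 3) and 9.41 ± 0.34 in metestrus (SD, n = 8), and the fitted difference was -0.55 ± 0.32 (SE) on the log2 scale (limma adjusted p = 0.498).

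Megf10 (ENSMUSG00000024593.16) encodes a receptor with many epidermal growth factor repeats, the mammalian relative of the worm receptor CED-1. Megf10 read 8.08, 8.26, 8.44 and 8.59 in males, ranged from 7.86 to 9.29 (median 8.48) in metestrus, and read 8.16, 8.46 and 8.66 in proestrus and 7.98, 8.22, 8.89 and 9.00 in estrus. The male and proestrus values lay inside the metestrus range, and so did all 4 estrus values. Its fold changes were the smallest of the receptors in estrus, at -0.07 ± 0.30 (SE; -0.69 to 0.55) against metestrus and 0.08 ± 0.30 (-0.54 to 0.70) against proestrus.

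Gulp1 (ENSMUSG00000056870.10) encodes an adaptor that binds the cytoplasmic tails of Megf10 and Lrp1 and is the mammalian relative of the worm protein CED-6. Gulp1 varied most of the 10 genes, with an SD of 0.58 over the 19 libraries, where the median of tested genes was 0.49. It read 8.74, 8.85, 9.09 and 9.34 in males, ranged from 8.26 to 9.26 (median 8.91) in metestrus, and read 7.17, 8.10 and 8.52 in proestrus and 7.86, 8.11, 8.69 and 9.48 in estrus. Of the 3 proestrus libraries, 2 lay below every metestrus library and the other within their range, so the groups overlapped.

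Gulp1 averaged 7.93 ± 0.69 in proestrus (SD, n = 3) and 8.88 ± 0.33 in metestrus (SD, n = 8). The log2 fold change of -0.97 ± 0.37 (SE; -1.74 to -0.21) had the largest size of any phagocytosis gene in any comparison, which is 1.97-fold lower in proestrus, with a limma adjusted p of 0.240. Without proestrus replicate 2, the library at 7.17, it was -0.60 with a limma adjusted p of 0.611, and over all alternatives the adjusted p of Gulp1 ranged from 0.0585 to 0.611. In estrus against proestrus the log2 fold change of Gulp1 was 0.62 ± 0.34 (SE; -0.09 to 1.34), and leaving out 1 library gave 0.23 (without proestrus replicate 2) to 0.96 (without estrus replicate 4). These 2 comparisons share the proestrus libraries.

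**Figure D2:**
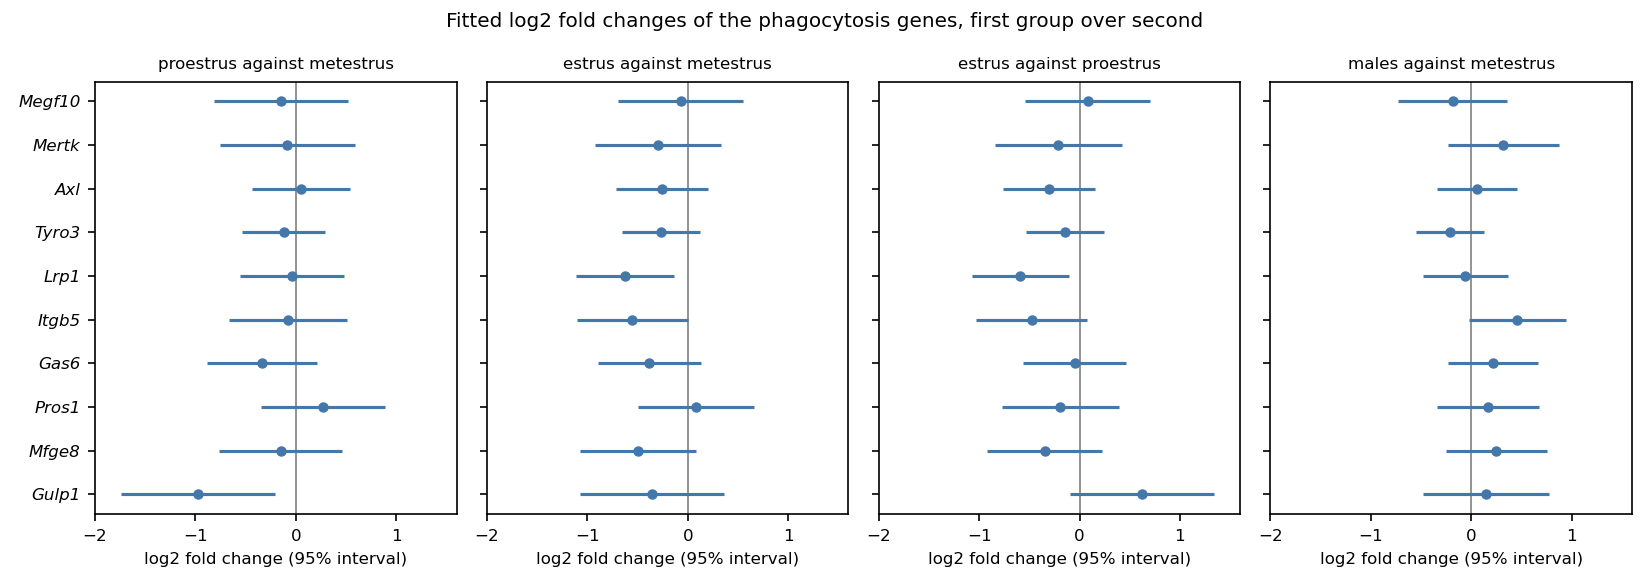
Fitted log2 fold changes of the 10 phagocytosis genes with 95% intervals from limma, 1 panel per comparison, the first group named over the second. Intervals that exclude 0 without adjustment belong to Gulp1 in proestrus against metestrus, Lrp1 in both estrus comparisons and Itgb5 in estrus against metestrus, and 0 of 10 passed after adjustment over all genes. The interval of Itgb5 included 0 (-1.14 to 0.04) once the directions removed before deposit were counted in the model.

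Read over the 10 genes, more fold changes were below 0 than above it in both estrus comparisons, and in proestrus against metestrus their median was close to that of all genes. In estrus against metestrus 9 of 10 were below 0, Pros1 being the exception, beside 56.5% of all tested genes, and their median was -0.32, beside -0.07 for all genes. In proestrus against metestrus 8 of 10 were below 0 (beside 58.1%), with a median of -0.10 beside -0.09. In estrus against proestrus 8 of 10 were below 0 (beside 48%), with a median of -0.20 beside 0.02. In males against metestrus 3 of 10 were below 0 (Megf10, Tyro3 and Lrp1, beside 44.7%), with a median of 0.16 beside 0.04. Some of the genes vary together, as the correlations given further on show, so these counts are not counts of independent genes. The stage comparisons rest on batches 2 and 3 and share groups with each other, and males against metestrus rests on batch 4. Of the 12 astrocyte markers, 8 were below 0 in estrus against metestrus (median -0.15), 10 in proestrus against metestrus (median -0.11), 6 in estrus against proestrus (median -0.00076) and 2 in males against metestrus (median 0.20), with 0 called in each, and their part in the counts above was not tested.

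Levels of different genes were compared per kilobase of exon, by subtracting the log2 of the exon length of each gene in the GENCODE vM21 annotation from its log2 value. This assumes that the deposited values scale with reads. On this scale Mfge8 averaged 12.25 ± 0.48 (SD, n = 19) and Gas6 9.35 ± 0.38. Then followed Itgb5 at 8.52, Axl at 8.42, Mertk at 7.96, Tyro3 at 7.62, Gulp1 at 6.87, Lrp1 at 6.44, Pros1 at 5.67 and Megf10 at 5.57. Mfge8 exceeded Gas6, and Gas6 exceeded Itgb5, in 19 of 19 libraries. Of the neighbours lower in the order, some were closer than the spread of their difference: Itgb5 exceeded Axl in 12 of 19 libraries, Mertk exceeded Tyro3 in 13 of 19, Gulp1 exceeded Lrp1 in 15 of 19, and Pros1 exceeded Megf10 in 12 of 19. Others stood at about their spread or farther apart: Axl exceeded Mertk in 17 of 19, Tyro3 exceeded Gulp1 in 16 of 19 (by 0.75 ± 0.61, SD) and Lrp1 exceeded Pros1 in 18 of 19 (by 0.77 ± 0.45). Lrp1 stood high before the correction, and its exons of 16305 bases put it near the bottom after it.

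**Figure D3:**
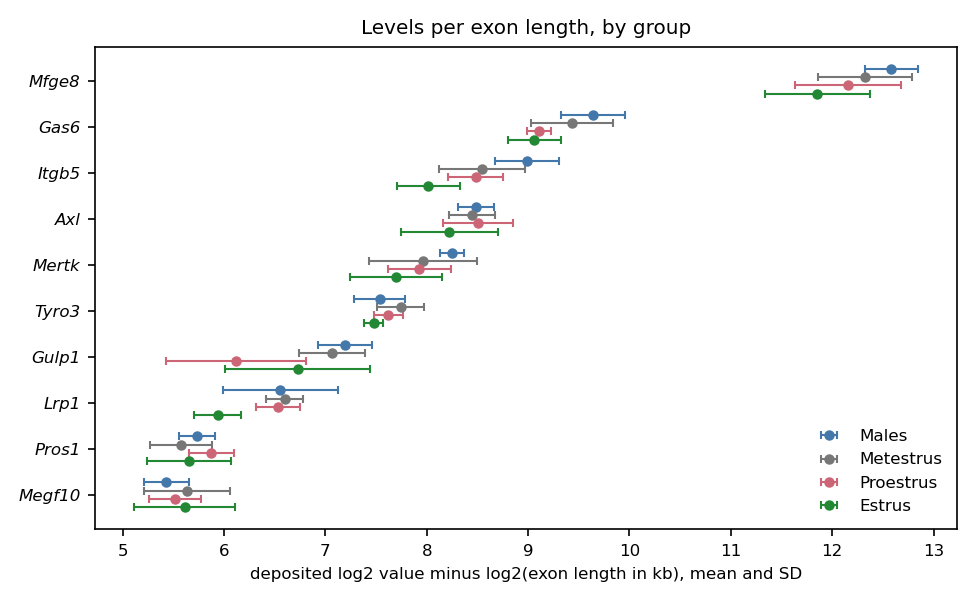
Level of each phagocytosis gene per kilobase of exon, as deposited log2 value minus log2 of the exon length in kilobases, with mean and SD in each group. Mfge8 averaged 12.25 and Megf10 5.57 over the 19 libraries, and Mfge8 stood highest in each of the 4 groups.

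Within libraries, the ratios of related genes were more stable for some pairs than for others. The ligand Gas6 exceeded the ligand Pros1 by 3.68 ± 0.49 log2 units per kilobase (SD, n = 19) and in every library. Mfge8 exceeded its receptor gene Itgb5 by 3.73 ± 0.32 in every library. Among the 3 receptor kinases, Axl exceeded Tyro3 in 19 of 19 libraries (0.79 ± 0.30), and Axl exceeded Mertk in 17 of 19 (0.45 ± 0.45). Megf10 stood below Mertk in every library, by -2.39 ± 0.33 on average. Gulp1 exceeded its partner Megf10 in 18 of 19 libraries, the exception being a proestrus library with a difference of -0.39.

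Of the 45 pairs of phagocytosis genes, most had a correlation above 0 between libraries, but few had a strong one. In 37 of 45 pairs the correlation over the 19 libraries was above 0, with a median r of 0.30. After group and batch were taken out the median was 0.33. No such share was computed over pairs of all tested genes, so these values do not set the phagocytosis genes apart. These are descriptions: the libraries share batches, and 4 directions of variation were removed from the values before deposit. In 4 pairs r exceeded 0.7. Gas6 with Itgb5 had the highest, at r = 0.85 (Spearman 0.82, and r = 0.71 without the 2 libraries farthest from the median of Itgb5). Mfge8 with Itgb5 had r = 0.77 (Spearman 0.78, 0.73 without 2), Axl with Mfge8 r = 0.75 (Spearman 0.64, 0.54 without 2) and Mertk with Gas6 r = 0.73 (Spearman 0.74, 0.64 without 2). Tyro3 went with Lrp1 (r = 0.66, Spearman 0.82, 0.79 without 2) more than with its fellow kinases Axl (r = 0.33) and Mertk (r = 0.04). Pros1 stood apart, with the lowest correlation of all against Gulp1 (r = -0.50, Spearman -0.50, -0.33 without 2). Metestrus replicate 8, from batch 4, was the highest of its group for 6 of 10 genes, and estrus replicate 1, from batch 2, for 6 of 10 in its group.

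**Figure D4:**
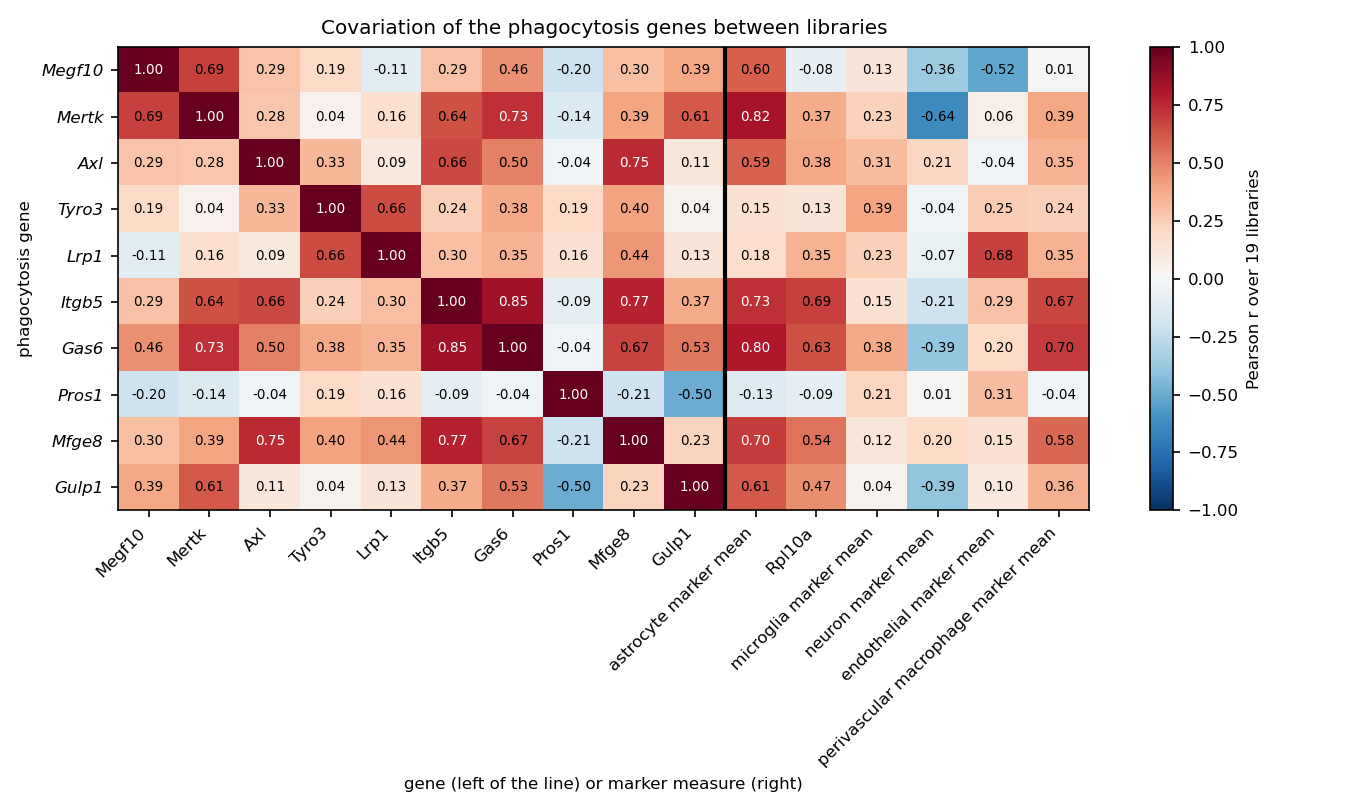
Pearson correlations over the 19 libraries among the 10 phagocytosis genes (left of the line) and with marker means and Rpl10a, the gene of the tagged ribosomal protein (right of the line). Among pairs of different genes the reddest cells are Gas6 with Itgb5 (r = 0.85), Mfge8 with Itgb5 (0.77), Axl with Mfge8 (0.75) and Mertk with Gas6 (0.73). Axl with Mertk is paler (0.28), and Pros1 is pale or blue against most genes.

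The genes that varied together were mostly those that followed the astrocyte markers of the same library. Mertk had r = 0.82 with the mean of the 12 astrocyte markers (Spearman 0.90, 0.81 without 2 libraries), Gas6 r = 0.80 (Spearman 0.78, 0.79 without 2), Itgb5 r = 0.73 (Spearman 0.72, 0.64 without 2) and Mfge8 r = 0.70 (Spearman 0.57, 0.44 without 2). Lrp1 (r = 0.18), Tyro3 (r = 0.15) and Pros1 (r = -0.13) did not follow it. Mertk also had r = -0.64 with the mean of the 12 neuron markers (Spearman -0.58, -0.39 without 2 libraries). Gas6 and Itgb5 followed the 6 markers of perivascular macrophages as well (r = 0.70 and r = 0.67), whose mean lay between 5.10 and 5.62 in males, 4.05 and 5.47 in metestrus, 3.82 and 4.10 in proestrus and 3.44 and 4.59 in estrus. Of these 6 markers, 6 had a fold change below 0 in estrus against metestrus (median -1.07) and 1, Mrc1, in males against metestrus (median 0.65), with 0 called in both. These markers differed among themselves: in males (SD, n = 4) and metestrus (SD, n = 8) Lyve1 averaged 5.64 ± 0.95 and 3.05 ± 1.43. Pf4 averaged 6.12 ± 0.87 and 6.07 ± 0.69, and Mrc1 3.29 ± 2.11 and 5.20 ± 0.85. Lyve1 averaged 3.36 ± 0.30 in proestrus and 1.90 ± 2.57 in estrus, so in the female groups it lay near or below the filter level of 3.32. Rpl10a, the gene of the tagged ribosomal protein, had r = 0.63 with Gas6 and r = 0.69 with Itgb5 (0.48 and 0.49 without 2 libraries). Its mean was 12.99 in males, 12.38 in metestrus, 12.13 in proestrus and 11.92 in estrus. What part transcripts of these macrophages or the level of Rpl10a had in the values of Gas6 and Itgb5 was not tested. Microglia markers had r between 0.04 and 0.39 with the 10 genes. With the astrocyte mean as a covariate, an alternative chosen after seeing the data, Lrp1 in estrus against metestrus kept a log2 fold change of -0.64, and Itgb5 had -0.37 in estrus and 0.19 in males against metestrus. Under it 0 of 10 passed in any comparison.

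**Figure D5:**
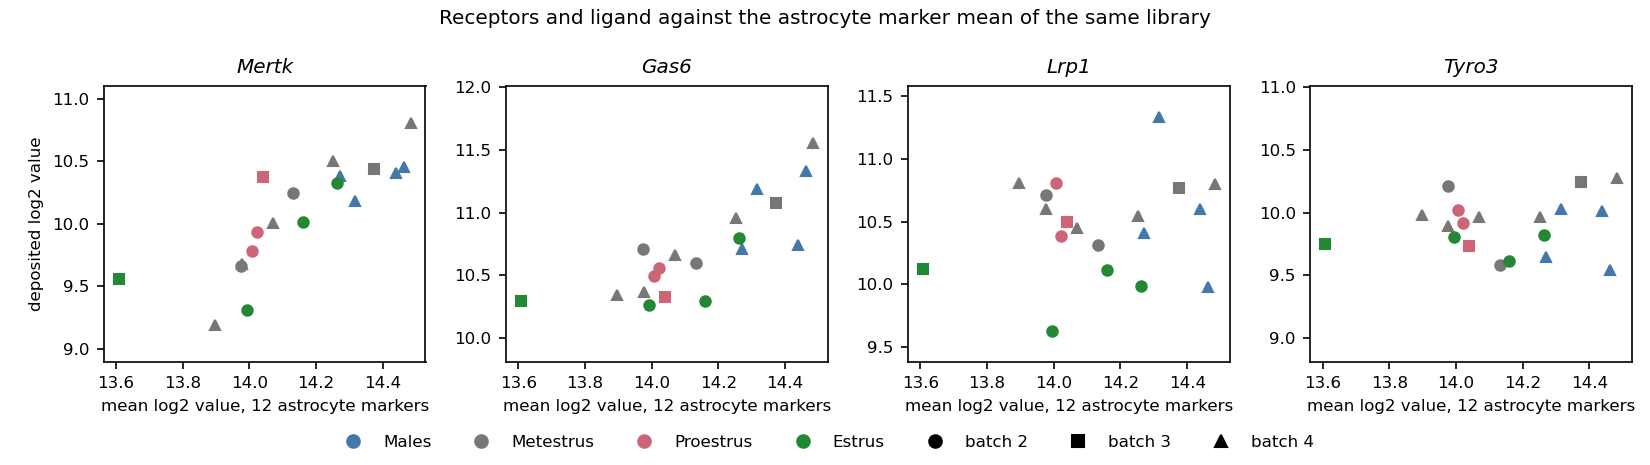
Deposited log2 values of Mertk, Gas6, Lrp1 and Tyro3 in each library against the mean log2 value of 12 astrocyte markers in the same library, with the group as colour and the batch as marker shape. Mertk (r = 0.82) and Gas6 (r = 0.80) climb with the markers over the 19 libraries, while Lrp1 (r = 0.18) and Tyro3 (r = 0.15) do not.

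Promoter sequence gave a feature that the genes share. Windows of 250 bases before the RefSeq gene start (GRCm38.p6) were at hand for 9 of the 10 genes and were searched on both strands. All 9 held at least 1 GC box with the letters GGGCGG, a motif bound by Sp family factors, beside 53.3% of the 16378 windows of tested genes and 32.7% of all 32851 windows. The GC content of these windows ran from 54.8% to 73.2%, all above the median of 52.4% over all windows. The part of base composition in the motif counts was not tested. An estrogen response element with the letters GGTCANNNTGACC was in 0 of 9 windows (0.00611% of tested-gene windows, 0.0639% of all windows), its half-site AGGTCA in 0 of 9 (11% and 14%) and the TATA box TATAAA in 0 of 9 (7.08% and 12.4%). The AP-1 motif TGANTCA was in 0 of 9 (4.74% and 6.75%), and the direct repeat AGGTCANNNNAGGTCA of the liver X receptors, nuclear receptors known to induce Mertk, was in 0 of 9 (0.0122% and 0.0152%). A match or its absence describes these letters in these windows and says nothing of the factor. Shown are the windows of Gas6 (chr8:13494536-13494785, minus strand), Itgb5 (chr16:33829415-33829664, plus strand) and Mfge8 (chr7:79149061-79149310, minus strand), since these 3 genes varied together, in gene orientation with GC boxes of either strand in capitals.
Gas6: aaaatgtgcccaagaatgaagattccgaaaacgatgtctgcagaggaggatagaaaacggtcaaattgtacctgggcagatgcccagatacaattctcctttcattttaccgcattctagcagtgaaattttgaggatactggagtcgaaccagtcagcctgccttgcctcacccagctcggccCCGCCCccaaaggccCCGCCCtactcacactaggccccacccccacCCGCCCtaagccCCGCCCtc
Itgb5: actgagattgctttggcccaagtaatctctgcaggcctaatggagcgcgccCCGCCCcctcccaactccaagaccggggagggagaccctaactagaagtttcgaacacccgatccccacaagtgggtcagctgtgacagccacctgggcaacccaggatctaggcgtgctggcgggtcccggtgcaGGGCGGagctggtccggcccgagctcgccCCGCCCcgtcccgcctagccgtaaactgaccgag
Mfge8: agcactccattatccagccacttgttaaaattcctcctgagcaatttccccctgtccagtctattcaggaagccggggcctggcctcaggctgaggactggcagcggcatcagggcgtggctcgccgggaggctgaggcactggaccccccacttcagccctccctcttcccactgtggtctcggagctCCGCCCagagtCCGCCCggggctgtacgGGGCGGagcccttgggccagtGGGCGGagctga
Gas6 and Mfge8 hold 4 GC boxes each and Itgb5 holds 3, most of them in the part of the window nearest the gene start.

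For each phagocytosis gene the genes with the most similar pattern over the 19 libraries were looked up among all tested genes by Pearson's r, as a description. Gulp1 was most like Fgd4 (r = 0.97), Med15 (0.93) and Cby1 (0.92). Gas6 was most like Lamp1 (0.96), Scara3 (0.93) and Sirpa (0.93), and Mertk like Tle1 (0.92), Sparcl1 (0.91) and Nim1k (0.91). Itgb5 was most like Timp2 (0.92), Col23a1 (0.91) and Tmem51 (0.91), Mfge8 like Acat3 (0.91), Slc13a5 (0.91) and Ifitm2 (0.90), and Axl like Csad (0.90), Mlc1 (0.87) and Tyk2 (0.87). Megf10 came nearest to Egfl6 (0.89), Lrp1 to Scn8a (0.88), Tyro3 to Spns2 (0.84) and, of genes with a descriptive name, Pros1 to Etohd2 (0.83).

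Calls were few in the wider engulfment pathway too. Of 18 other tested engulfment receptors, 0 passed in each comparison, and 4 of 18 had an unadjusted p under 0.05 in estrus against proestrus (beside 14.5% of all genes). Adgrb1, a phosphatidylserine receptor also called Bai1, averaged 9.38 ± 0.49 (SD) in the 4 estrus libraries and 10.16 ± 0.33 in the 3 proestrus libraries, and the fitted difference was -0.77 ± 0.26 (SE) on the log2 scale (limma adjusted p = 0.147). Trem2, a receptor of microglia, averaged 7.10 ± 0.17 in proestrus (SD, n = 3) and 6.44 ± 0.60 in metestrus (SD, n = 8), with a limma adjusted p of 0.586.

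Of 22 tested genes for find-me, eat-me and do-not-eat-me signals, 1 passed in 1 comparison. Tub, whose product Tubby is described as a bridging ligand of Mertk in the mouse, averaged 8.78 ± 0.42 (SD) in the 4 estrus libraries and 9.82 ± 0.38 in the 3 proestrus libraries. It fell in estrus by 1.04 on the log2 scale (± 0.23, SE; limma adjusted p = 0.0291). The call ended when the directions removed before deposit were counted in the model (limma adjusted p = 0.0840), with only the libraries of both groups and their shared batches (0.291), and without proestrus replicate 2 (0.169), estrus replicate 1 (0.0522) or estrus replicate 2 (0.0501), and over all alternatives the adjusted p ranged from 0.0143 to 0.291. Against metestrus, Tub in estrus had a log2 fold change of -0.99 ± 0.23 (SE; limma adjusted p = 0.0951). Lgals3, galectin 3, described as a ligand of Mertk in the mouse, averaged 6.99 ± 0.73 in estrus, 6.88 ± 0.71 in proestrus and 5.49 ± 0.77 in metestrus, with limma adjusted p of 0.304 and 0.289 against metestrus. C1qa, a complement gene that is also a microglia marker, averaged 8.39 ± 0.10 in proestrus (SD, n = 3) and 7.70 ± 0.23 in metestrus (SD, n = 8), and the fitted difference was 0.69 ± 0.28 (SE) on the log2 scale (limma adjusted p = 0.271). Of the 14 tested microglia markers, 5 had a fold change below 0 in this comparison (beside 58.1% of all tested genes), with 0 called. Among the 14, Tyrobp averaged lower in proestrus, at 6.78 ± 0.72 (SD), than in metestrus, at 7.44 ± 0.66.

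The machinery downstream of the receptors gave 0 calls as well. Of 24 genes of the cytoplasmic machinery (Elmo1, Dock1, Rac1 and others) 0 passed, and 3 of 24 had an unadjusted p under 0.05 in proestrus against metestrus (beside 13.1%). Abca7, a lipid transporter related to the worm engulfment protein CED-7, averaged 6.80 ± 0.14 in proestrus (SD, n = 3) and 5.34 ± 0.36 in metestrus (SD, n = 8), and the fitted difference was 1.47 ± 0.54 (SE) on the log2 scale (limma adjusted p = 0.231). In estrus Abca7 averaged 5.20 ± 0.86. Vav3, an exchange factor for small GTPases, averaged 8.54 ± 0.13 in proestrus and 7.72 ± 0.33 in metestrus, with a fitted difference of 0.77 ± 0.29 (SE) on the log2 scale (limma adjusted p = 0.234).

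Of the 22 tested genes of phagosomes and lysosomes 0 passed. Lipa, the lysosomal acid lipase, averaged 7.01 ± 0.25 in males (SD, n = 4) and 7.75 ± 0.37 in metestrus (SD, n = 8), and the fitted difference was -0.71 ± 0.28 (SE) on the log2 scale (limma adjusted p = 0.856). Of 12 proteases that shed or mature the receptors 0 passed. Adam17, a protease known to shed Mertk, averaged 6.16 ± 0.23 in proestrus (SD, n = 3) and 7.38 ± 0.33 in metestrus (SD, n = 8), and the fitted difference was -1.28 ± 0.43 (SE) on the log2 scale (limma adjusted p = 0.178). Of 15 regulators of receptor expression 0 passed. Nr1h3, the liver X receptor alpha, averaged 8.02 ± 0.10 in proestrus and 8.65 ± 0.22 in metestrus, with a fitted difference of -0.65 ± 0.24 (SE) on the log2 scale (limma adjusted p = 0.229), and Pparg, a nuclear receptor of lipid metabolism, averaged 7.10 ± 0.39 in estrus (SD, n = 4) and 4.91 ± 1.71 in metestrus, with a fitted difference of 2.17 ± 0.85 (SE) on the log2 scale (limma adjusted p = 0.340).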

How the data were processed

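The authors deposited 1 table of log2 values for 21749 genes in 19 libraries, between -5.12 and 19.00, per the file headers and the values. Per the submitters' processing notes STAR, Salmon, edgeR and the build GRCm39 were used, and their versions, order, pseudocount, scaling and filters are not given in these sources. After the groups were fitted the columns spanned 11 dimensions in place of 15, so 4 directions of variation had been removed with the group means kept. No depth could be recovered, so no counting intervals stand in the text.

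Tested were the 94.9% of genes that reached a log2 value of 3.32, or 10 unlogged, in 3 or more libraries. limma 3.58.1 in R 4.3.3 (limma-trend, robust prior) fitted group and batch to all 19 libraries, with two-sided p-values and Benjamini-Hochberg adjustment over the whole table at 0.05. With batch in the model, stage comparisons rest on batches 2 and 3 and males against metestrus on batch 4, and the batch 4 metestrus libraries add to the stage comparisons only in the estimate of spread. The model counts 13 residual degrees of freedom where the values allow 11, which makes p-values too small and intervals too narrow. An alternative counts the removed directions, by adding to group and batch the 2 that are independent of batch. Under it the calls over all genes went from 204 to 75 in proestrus against metestrus and from 18 to 0 in estrus against metestrus. The fit was tested on simulated data. All 10 phagocytosis genes are described. From each of 8 pathway lists every gene past the threshold, or otherwise the 2 with the largest fold changes per comparison among genes averaging at least 5, could be named, with 3 genes of like pattern per phagocytosis gene. The text gives a selection of these. The genes, lists and tests were chosen with earlier results of these data known. Exon lengths are from GENCODE vM21 and promoter sequences from RefSeq on GRCm38.p6, and no coordinates were set against the authors' build.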

Additional observations from a re-analysis of the deposited data

Results flagged for a closer look

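Within the groups of 4 and of 8 libraries, each of the 10 phagocytosis genes was checked for a library far from the rest by Dixon's criterion, which chance meets in about 1 in 20 groups. Of 30 groups, 2 met it, both in estrus replicate 1, a library of batch 2. Gas6 read 10.80 there, and the nearest of the other estrus libraries read 10.29, a gap of 0.944 of the whole range. Pros1 read 6.76 there, and the nearest other estrus library read 7.56, a gap of 0.916 of the range. The same library was thus the highest of its group for Gas6 and the lowest for Pros1. Without it, Gas6 had a log2 fold change of -0.51 in estrus against metestrus (limma adjusted p = 0.383), and Pros1 had 0.26 (limma adjusted p = 0.718). Estrus replicate 1 had the highest astrocyte marker mean of the estrus libraries, 14.26, and the part of this in the values was not tested.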

How the results depend on the processing

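The count of 0 of 10 phagocytosis genes past the threshold held in every comparison under all alternatives but 1. Without batch in the model it was 1 of 10 in estrus against metestrus and 1 of 10 for any difference among the groups, both times Lrp1 (limma adjusted p = 0.0382 and 0.0400). Counts over all genes moved more. Proestrus against metestrus called 204 genes, 1146 without batch, 75 with removed directions counted, 0 with only the libraries of both groups and their shared batches, and 68 to 190 leaving out 1 library (68 without metestrus replicate 1, 82 without proestrus replicate 1, 126 without proestrus replicate 2). Estrus against metestrus called 18 genes, 899 without batch, 0 with removed directions counted, 49 with neither trend nor robust prior, 0 with only the shared batches, and 0 to 56 leaving out 1 library (0 without metestrus replicate 1 or estrus replicate 2, 44 without estrus replicate 4, 56 without metestrus replicate 3, and 5 to 10 without any of metestrus replicates 4, 5, 6, 7 and 8). Estrus against proestrus called 194 genes, 310 with each library centred on its median, 3.6e2 without batch, 52 with removed directions counted, 328 with the astrocyte mean as a covariate, 0 with only the shared batches, and 66 to 430 leaving out 1 library (66, 83 and 304 without proestrus replicates 1, 2 and 3, 123 and 430 without estrus replicates 2 and 4). Males against metestrus called 5 genes, 10 without batch, 9 with neither trend nor robust prior, 13 with 10 added before the log, and 5 to 8 leaving out 1 library (8 without males replicate 2). Any difference among the groups called 131 genes, 2579 without batch, 32 with removed directions counted, 206 with neither trend nor robust prior, and 40 to 174 leaving out 1 library (40, 79 and 84 without proestrus replicates 1, 2 and 3, 77, 84 and 67 without metestrus replicates 1, 5 and 7). With 10 added before the log the split of calls turned in the stage comparisons: 105 higher and 59 lower, against 48 and 156 as deposited, in proestrus against metestrus, 13 and 1, against 4 and 14, in estrus against metestrus, and 111 and 127, against 123 and 71, in estrus against proestrus. The cause was not tested. Some fold changes turned in sign, and not only the smallest: in the main fit Mertk had 0.32 and Mfge8 0.25 in males against metestrus, and Mertk -0.30 in estrus against metestrus. With the astrocyte mean as a covariate, which was added after seeing the data, Megf10 had 0.091, Mertk 0.18, Mfge8 0.025 and Itgb5 0.080 in proestrus against metestrus, Megf10 0.21 and Mertk 0.0081 in estrus against metestrus, and Mertk -0.13, Axl -0.16, Gas6 -0.084, Mfge8 -0.051 and Gulp1 -0.19 in males against metestrus. With median centring Lrp1 had 0.000223 in proestrus against metestrus. Leaving out 1 library gave ranges across 0 in proestrus against metestrus for Megf10 (-0.25 to 0.069), Mertk (-0.29 to 0.055), Axl (-0.12 to 0.46), Tyro3 (-0.35 to 0.034), Lrp1 (-0.19 to 0.076), Mfge8 (-0.39 to 0.22), Itgb5 (-0.16 to 0.12), Ggcx (-0.50 to 0.038), Plat (-0.42 to 0.016) and Pparg (-0.84 to 2.31). In estrus against metestrus it did so for Megf10 (-0.21 to 0.18), Axl (-0.43 to 0.12), Pros1 (-0.15 to 0.27) and Plat (-0.36 to 0.059). In estrus against proestrus it did so for Megf10 (-0.099 to 0.33), Mertk (-0.40 to 0.019), Gas6 (-0.18 to 0.029) and Pros1 (-0.38 to 0.0094). In males against metestrus it did so for Megf10 (-0.35 to 0.0047), Axl (-0.024 to 0.14), Lrp1 (-0.31 to 0.14), Gulp1 (-0.0071 to 0.24) and Anxa1 (-0.75 to 0.012). Replicate numbers in the titles of batch 4 gave no clear pairing of males with females. Correlations of deviations at the same number were 0.16, 0.03, -0.26 and -0.13, and the highest at another number were 0.005, 0.09, 0.37 and 0.18. With 4 directions removed before deposit, these values cannot decide whether the libraries were paired. A replicate block on the title numbers called 4 genes and 0 of 10 phagocytosis genes, with Itgb5 at 0.48, and changed no call among these 10. Unknown depth, 1 library per stage in batch 3 and group sizes of 3 and 4 limit what could be detected: 95% intervals of the 10 genes reached from -1.74 to 1.34.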

Other observations

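The difference between Megf10 and Mertk, the pair of receptors best known for synapse uptake by astrocytes, was looked at per kilobase of exon within each library. It lay between -2.92 and -2.63 in males, -2.55 and -2.01 in metestrus, -2.72 and -2.08 in proestrus and -2.38 and -1.83 in estrus. Male and metestrus libraries did not overlap in this difference, although they overlapped for each gene alone. Male and estrus libraries did not overlap in it either. Other differences had such gaps between males and proestrus. Gulp1 minus Megf10 lay between 1.36 and 2.18 in males and -0.39 and 1.16 in proestrus. Gas6 minus Pros1 lay between 3.56 and 4.36 in males and 3.09 and 3.45 in proestrus. How often differences of other gene pairs are free of overlap was not computed. The difference between Megf10 and Mertk was singled out after its values were seen, as 1 of 7 such differences, and was not tested.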
